A study of Danio rerio with 44 samples.

Results

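Perfluorooctane sulphonate (PFOS) at 0.1 mg/L was compared with its solvent control in whole zebrafish embryos, across all genes. The comparison used 6 of the 44 RNA-sequencing libraries of the series: PFOS 0.1 mg/L replicates 1 to 3, and PFOS Solvent Control replicates 1 to 3, chosen by their sample labels alone. All embryos were wild type by label. The exposed pools were held in 0.1 mg/L PFOS and the control pools in solvent (0.1% DMSO), both for 72 h, from 24 to 96 h after fertilization. RNA of 20 embryos was pooled for each library. The spread behind each p-value is that among pools, which may be partly technical, and not that among single fish. The other PFOS groups (0.001, 1 and 5 mg/L, 3 libraries each) entered the same fit. The study asked how these compounds act on embryos at concentrations that do not kill or that occur in the environment.

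PFOS is a fluorinated surfactant with a carbon chain that is not broken down in the body. It binds serum proteins and fatty acid binding proteins, and in mammals it activates the fatty acid receptor PPAR-alpha in liver. During the days covered here a zebrafish embryo hatches, starts to swim, finishes most of its trunk muscle, lays down cartilage and basement membrane, and forms a layered retina from progenitors that are held back by Notch-driven repressors of the her and hes family.

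Library totals ran from 24.5 to 36.5 M counts over the series. Levels are given in CPM, counts scaled to a common library total, and 1 count was worth 0.0283 to 0.0409 CPM in the PFOS libraries. The whole-embryo label was checked with markers of 18 tissues: 47 of 52 tested markers were above 1 CPM in all 6 libraries, and the lowest value of any marker was 0.159 CPM. Component 1 of the log2 CPM values, with 37.9% of the variance, put the exposed pools at 29.7, -5.70 and 25.0 and the control pools at -33.4, -48.1 and -6.17. The share of values that were not whole numbers, a mark of how reads were divided among genes by the authors' estimation, was 73.7, 70.0 and 78.9% in the exposed pools and 65.0, 61.7 and 65.5% in the control pools. Mitochondrially encoded genes took 4.43 to 4.79% of counts in exposed pools and 5.09 to 5.38% in control pools. None of these 3 measures overlapped between the groups, although exposed replicate 2 and control replicate 3 were close on component 1, and their part in the results below was not tested. PFOS 0.1 mg/L replicate 3 stood at the end of the deposited table with 2 other PFOS libraries, outside the group order, and these 3 libraries had component 2 scores of 20.7 to 29.6, against -24.7 and -9.13 for the other exposed pools. PFOS 1 mg/L replicate 3 lay among the control pools on component 1, at -36.3, with 63.8% of its values not whole.

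**Figure D1:**
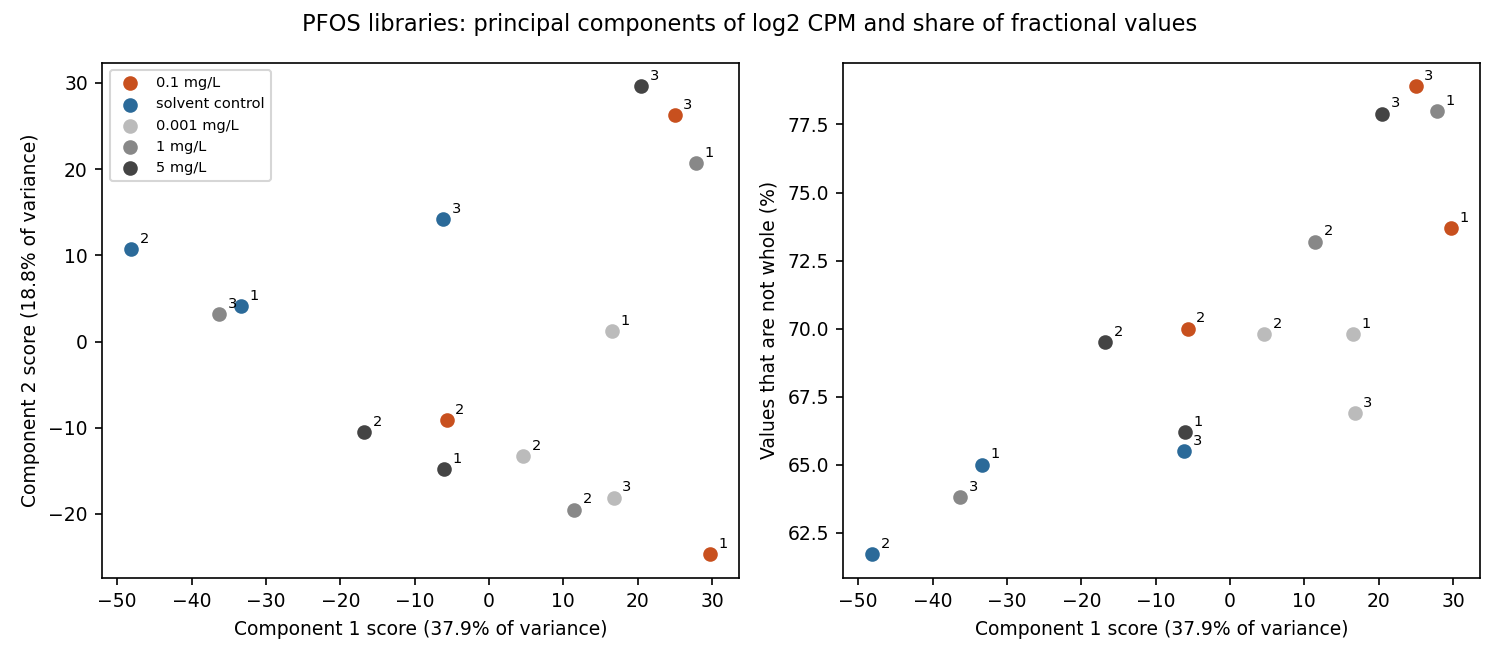
Left, scores of the 15 PFOS libraries on the first components of log2 CPM. Right, the share of values that are not whole (%) against component 1. Each point is a library, numbered by replicate and coloured by group. Exposed pools at 0.1 mg/L (orange) had 70.0 to 78.9% fractional values and control pools (blue) 61.7 to 65.5%.

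The genes called higher in exposed embryos included 5 of 79 tested skeletal muscle genes, 3 of 66 cartilage, bone and collagen genes and 2 of 49 epidermal genes. Those called lower included 4 of 68 photoreceptor genes and 1 of 58 cell cycle genes. Most members of these lists did not pass the test. Of 21980 genes tested, 376 were called, which is 1.71% (edgeR quasi-likelihood, Benjamini-Hochberg adjusted p under 0.05). Of these, 255 rose (1.16% of genes tested) and 121 fell (0.551%). The increases were larger: 119 genes rose by at least 2-fold and 5 fell by at least 2-fold. In all 376 called genes the exposed pools did not overlap the control pools. Among all genes, 15.5% had exposed pools wholly above and 14.3% wholly below the control pools. Of the 376 called genes, 335 carried a usable symbol. At an unadjusted p under 0.05, 14.1% of all genes were higher and 11.3% lower.

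This count rested on single libraries. It was 2 without exposed replicate 1, 168 without exposed replicate 2 and 9 without exposed replicate 3, and 4, 1 and 647 without control replicates 1, 2 and 3. It was 4 with all 44 libraries in the fit and 41 with only the 6 compared. Leaving out the 3 PFOS libraries outside the group order gave 865 called genes, 320 of them among the 376. DESeq2 called 1212 of 20690 genes higher and 1142 lower. Its counts within the lists below are to be read against these totals. The 88 called genes named by the rule passed the threshold in a median of 8.5 of 16 alternatives. None changed sign in an alternative that tested it, but since their pools did not overlap, leaving out a library could not turn a direction. The gene klf1 was tested in 15 of the 16. ANKRD11, a chromatin-associated ankyrin-repeat protein, passed in 15 of the 16. It had 55.9, 64.3 and 55.9 CPM in exposed pools and 29.7, 31.5 and 27.0 CPM in control pools. Its log2 fold change was 1.00 ± 0.11 (SE), adjusted p = 0.00388, the smallest of the comparison, which 1 other gene shared. The proneural factor ascl1b, which drives progenitors into the neuronal path, passed in 13.

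**Figure D2:**
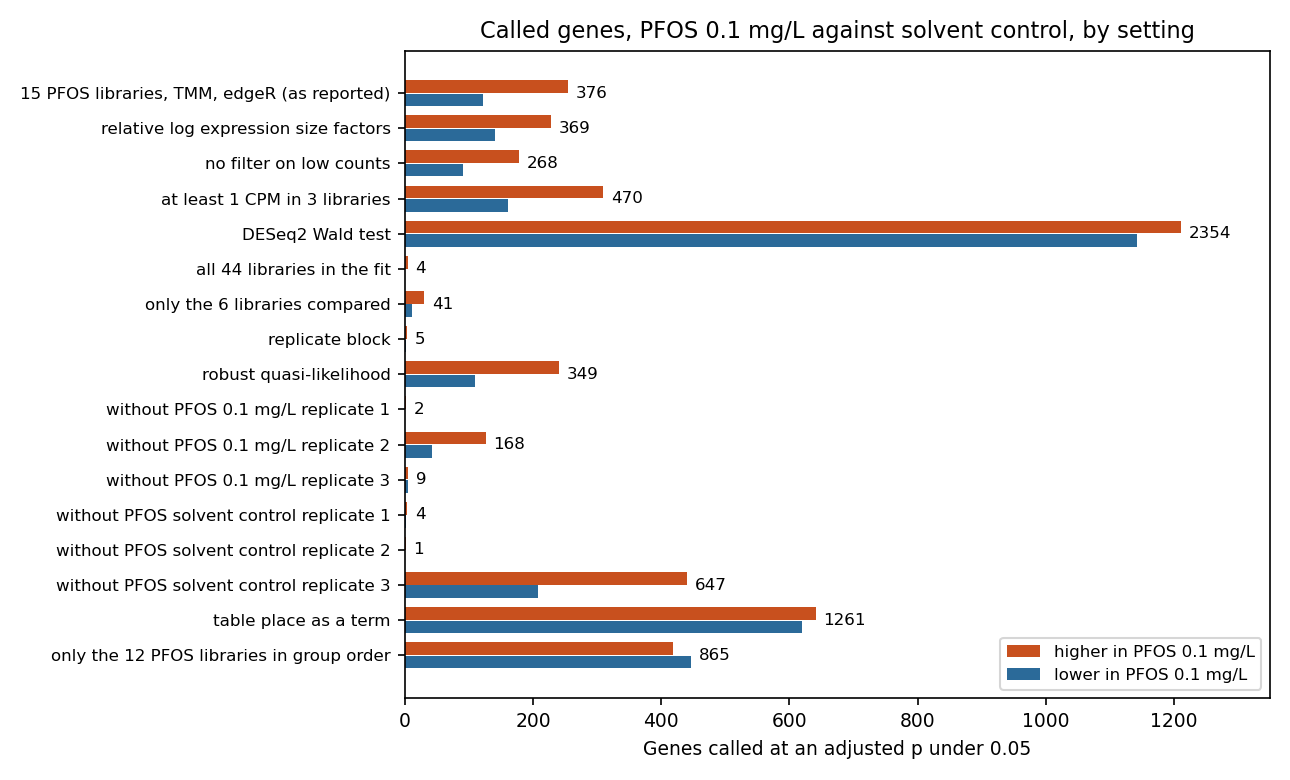
Number of genes called higher (orange) and lower (blue) in PFOS 0.1 mg/L against solvent control under each setting, with the total printed beside the bars. The total was 376 as reported, 1 without control replicate 2 and 2354 with DESeq2.

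The called genes furthest above the controls were led by UGP2 (ENSDARG00000005578), which makes the UDP-glucose used for glycogen and matrix sugars. UGP2 had 21.0, 15.8 and 16.4 CPM in exposed pools and 1.70, 1.56 and 3.18 CPM in control pools. Every exposed pool was several times every control pool, and the log2 fold change was 3.06 ± 0.54, adjusted p = 0.0332. Next came kcna7, a voltage-gated potassium channel, with 6.26, 3.45 and 3.73 CPM in exposed pools and 0.948, 0.446 and 1.53 CPM in control pools. Its log2 fold change was 2.21 ± 0.49, adjusted p = 0.0452. The gel-forming mucin muc5.3 had 18.0, 8.85 and 6.56 CPM in exposed pools and 2.98, 1.85 and 2.95 CPM in control pools. For muc5.3, exposed replicate 1 stood well above the other exposed pools. No overlap between the groups was a condition for the 15 furthest genes. The elastin gene elnb, which encodes the rubber-like fibre of vessel walls and swim organs, had 7.64, 5.18 and 6.41 CPM in exposed pools and 1.31, 0.828 and 2.49 CPM in control pools.

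The rest of the 15 furthest higher included secreted, membrane and intracellular proteins. SFRP2, a secreted Wnt inhibitor, rose by 1.89 ± 0.42 on the log2 scale, and tinagl1, a matrix glycoprotein, by 1.89 ± 0.41. COL4A1, the basement membrane collagen, had 23.0, 10.1 and 10.7 CPM in exposed pools and 3.89, 2.52 and 5.75 CPM in control pools. RSU1, a partner of the integrin-linked kinase complex, rose by 1.76 ± 0.40. The transferrin receptor tfr1a, which takes up iron, rose by 1.78 ± 0.35. The sialomucin cd34, found on vessels and blood progenitors, had 27.0, 13.6 and 18.7 CPM in exposed pools and 6.74, 4.21 and 8.12 CPM in control pools. MYLK4 (ENSDARG00000055412), a myosin light chain kinase, RAP1GDS1, a regulator of small GTPases, and WBP1L (ENSDARG00000029751) rose by 1.81, 1.68 and 1.72 on the log2 scale.

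**Figure D3:**
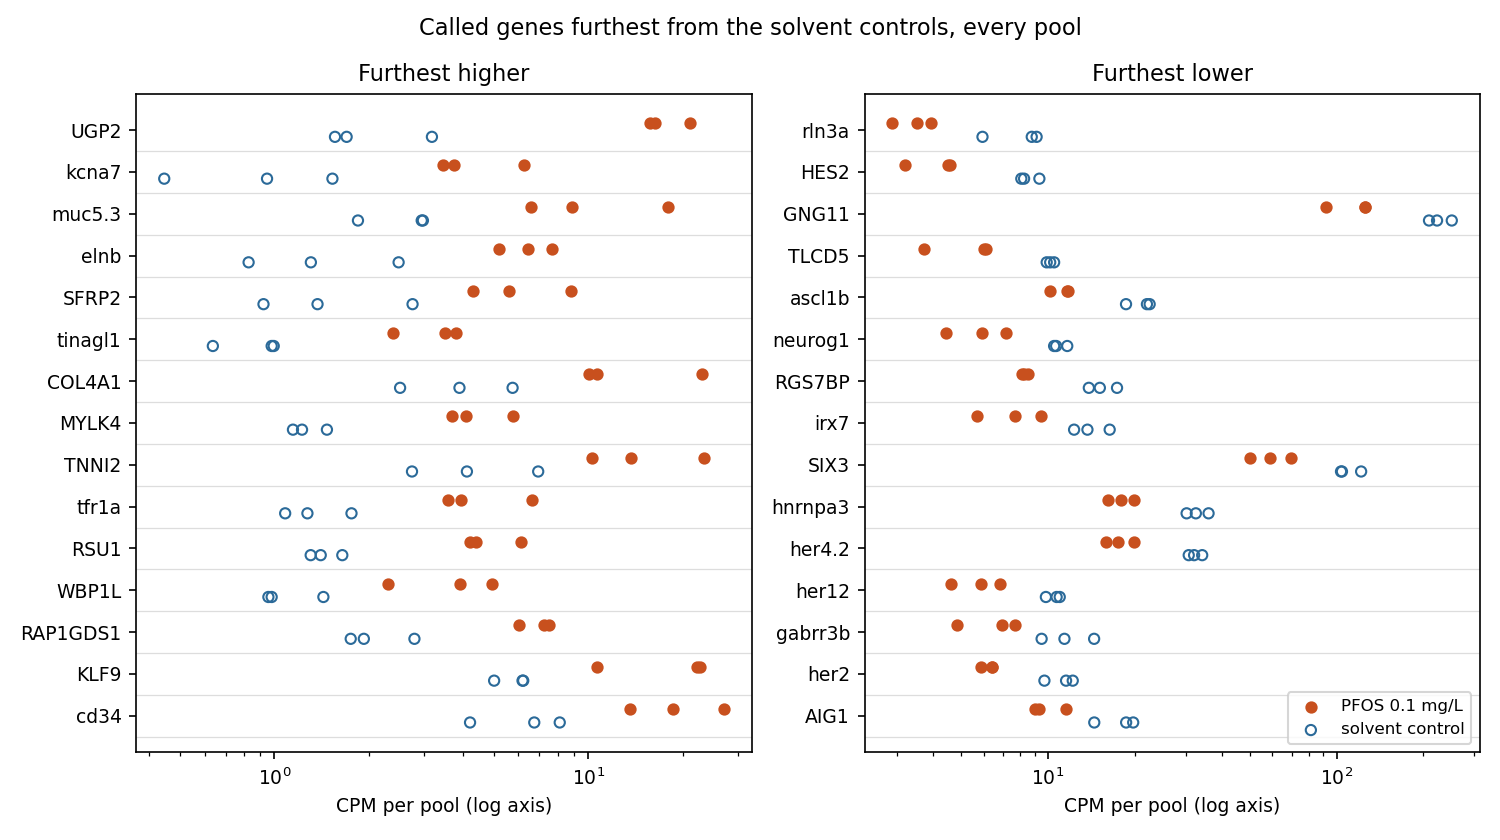
CPM in each pool (log axis) of the 15 called genes furthest higher (left) and the 15 furthest lower (right), with the 3 exposed pools as filled orange points above the 3 control pools as open blue points. The 30 genes were chosen among those whose groups do not overlap. The increases span wider distances than the decreases.

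Most skeletal muscle genes were higher in exposed pools. Of the list's 79 tested genes, 5 were called higher (6.33%, against 1.16% of all genes) and none lower. At an unadjusted p under 0.05, 43 were higher, or 54.4% against 14.1% of all genes. The list's median log2 fold change was 0.54, against 0.03 over all genes tested. The myosin heavy chain gene myhb had 142, 101 and 108 CPM in exposed pools and 40.9, 29.8 and 49.3 CPM in control pools, a log2 fold change of 1.55 ± 0.30 (adjusted p = 0.0364). MYH7 was matched to vmhc, a heart marker in the check of tissues, and is in the heart list too. It had 21.7, 16.8 and 18.0 CPM in exposed pools and 6.02, 5.13 and 8.73 CPM in control pools. The troponin I genes, whose protein holds contraction off until calcium arrives, followed. TNNI1 (ENSDARG00000052708), the slow form, had 15.8, 15.4 and 17.6 CPM in exposed pools and 8.67, 8.95 and 10.3 CPM in control pools. TNNI2 (ENSDARG00000045592), a fast form, had 23.5, 13.7 and 10.3 CPM in exposed pools and 2.75, 4.11 and 6.93 CPM in control pools. A second TNNI2 gene (ENSDARG00000035958) was also called, at 1.22 ± 0.25. Myosin heavy chain genes have near-identical copies, among which estimated counts can be divided, so the value of a single copy is uncertain.

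In the heart list 3 of 38 tested genes were called higher (7.89%, against 1.16% of all genes), 22 were higher at an unadjusted p under 0.05 (57.9%, against 14.1% of all genes), and the median log2 fold change was 0.63. MYH6 (ENSDARG00000079564), which carries the symbol of the human atrial-type myosin, had 110, 90.8 and 123 CPM in exposed pools and 55.4, 50.8 and 68.3 CPM in control pools. Several genes share this symbol, so the tissue of this copy is uncertain, as is its value among near-identical copies. The other 2 calls, MYH7 and TNNI1, are in the skeletal list too. In whole embryos, more muscle cells and more muscle RNA per cell cannot be told apart, and this holds for every tissue list here. The mean log2 CPM over the skeletal list was 7.65, 7.35 and 7.65 in exposed pools and 6.73, 6.67 and 7.32 in control pools. Control replicate 3 therefore lay just under exposed replicate 2. Without control replicate 3 the list's median log2 fold change was 0.79, and without control replicate 2 it was 0.41 with 0 genes called.

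Proteins that anchor actin at the ends and edges of muscle fibres formed the family with the largest median change among those examined. This family of filamins, vinculin, talins and Xin proteins was picked after its leading members were seen to be called, so its count describes and does not test it. Of 13 tested members 5 were called higher (38.5%, against 1.16% of all genes), and the median log2 fold change was 1.19. All 13 had a positive fold change, against 53.2% of all genes. FLNC (ENSDARG00000018566), a muscle filamin that crosslinks actin at the Z-disc, had 29.4, 18.4 and 21.8 CPM in exposed pools and 9.19, 8.03 and 13.3 CPM in control pools. The Xin protein xirp1, of the intercalated discs and myotendinous junctions, had 14.6, 13.3 and 15.0 CPM in exposed pools and 5.46, 5.67 and 7.66 CPM in control pools. XIRP2 (ENSDARG00000091090) and VCL (ENSDARG00000098695), which encodes vinculin, rose by 1.40 and 1.25 on the log2 scale. The lowest fold change in the family was 0.30 on the log2 scale.

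Of 66 tested cartilage, bone and collagen genes, 3 were called higher (4.55%, against 1.16% of all genes) and 65 had a positive fold change (98.5%, against 53.2% of all genes), with a median of 0.67. COL5A2, a fibril-forming collagen, had 210, 121 and 167 CPM in exposed pools and 71.2, 54.9 and 90.3 CPM in control pools (log2 fold change 1.21 ± 0.26, adjusted p = 0.0437). COL10A1 (ENSDARG00000054753), a collagen of maturing cartilage and bone, had 31.6, 15.9 and 20.1 CPM in exposed pools and 8.99, 7.90 and 14.2 CPM in control pools. COL4A1 is the remaining call.

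Laminins and nidogens, the glycoproteins that assemble with collagen IV into basement membrane, were also grouped after calls among them were seen. Of 17 tested members 2 were called higher (11.8%, against 1.16% of all genes). At an unadjusted p under 0.05, 16 were higher (94.1%, against 14.1% of all genes). All 17 had a positive fold change, from 0.34 to 2.31, against 53.2% of all genes. These counts describe the family and do not test it. The laminin alpha 2 gene lama2, which ties muscle fibres to their basement membrane, had 4.48, 3.19 and 3.81 CPM in exposed pools and 0.654, 0.382 and 1.30 CPM in control pools. Its log2 fold change was 2.31 ± 0.47, adjusted p = 0.0391. NID2, which links laminin to collagen IV, had 38.0, 30.1 and 36.4 CPM in exposed pools and 15.3, 12.4 and 22.4 CPM in control pools. Integrin subunits, the receptors that hold cells to this matrix, were also grouped after values were seen. Of 33 tested, 3 were called higher (9.09%, against 1.16% of all genes), and the median log2 fold change was 0.67. ITGA9, ITGA10 and ITGA11 (ENSDARG00000036086) rose by 1.79, 0.71 and 0.67. ITGA9 was at 3.54, 2.63 and 2.45 CPM in exposed pools and 0.817, 0.860 and 0.804 CPM in control pools, where the controls were nearly equal.

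In the epidermal and keratin list, 2 of 49 tested genes were called higher (4.08%, against 1.16% of all genes). At an unadjusted p under 0.05, 19 were higher (38.8%, against 14.1% of all genes), and the median log2 fold change was 0.52. Both calls were plakins, which bind keratin filaments to cell junctions. Periplakin, PPL, had 191, 110 and 161 CPM in exposed pools and 66.1, 63.9 and 75.5 CPM in control pools, and envoplakin, evpla, had 34.7, 24.5 and 22.4 CPM in exposed pools and 12.9, 10.9 and 18.0 CPM in control pools. Desmoplakin, DSP (ENSDARG00000022309), was at 86.4, 44.3 and 61.3 CPM in exposed pools and 27.3, 19.8 and 38.7 CPM in control pools and was not called (adjusted p = 0.0717). The abundant keratin markers were not called. Keratin krt4 was at 6890, 3661 and 6376 CPM in exposed pools and 5231, 4626 and 5111 CPM in control pools, and cyt1 and krt5 had log2 fold changes of 0.07 and -0.02. In all 3 of these genes exposed replicate 2 lay below every control pool. Without exposed replicate 1 the list median was 0.27, and without control replicate 2 it was 0.34.

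These lists were not high in every exposed PFOS library. PFOS 1 mg/L replicate 3, which lay among the controls on component 1, had a mean log2 CPM of 6.95 over the skeletal muscle list, 3.46 over laminins and nidogens and 4.62 over keratins. Control pools spanned 6.67 to 7.32, 3.11 to 3.58 and 4.82 to 5.30 on the same lists. This library also had a low share of fractional values, as given above, and the part of that share in these levels was not tested.

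**Figure D4:**
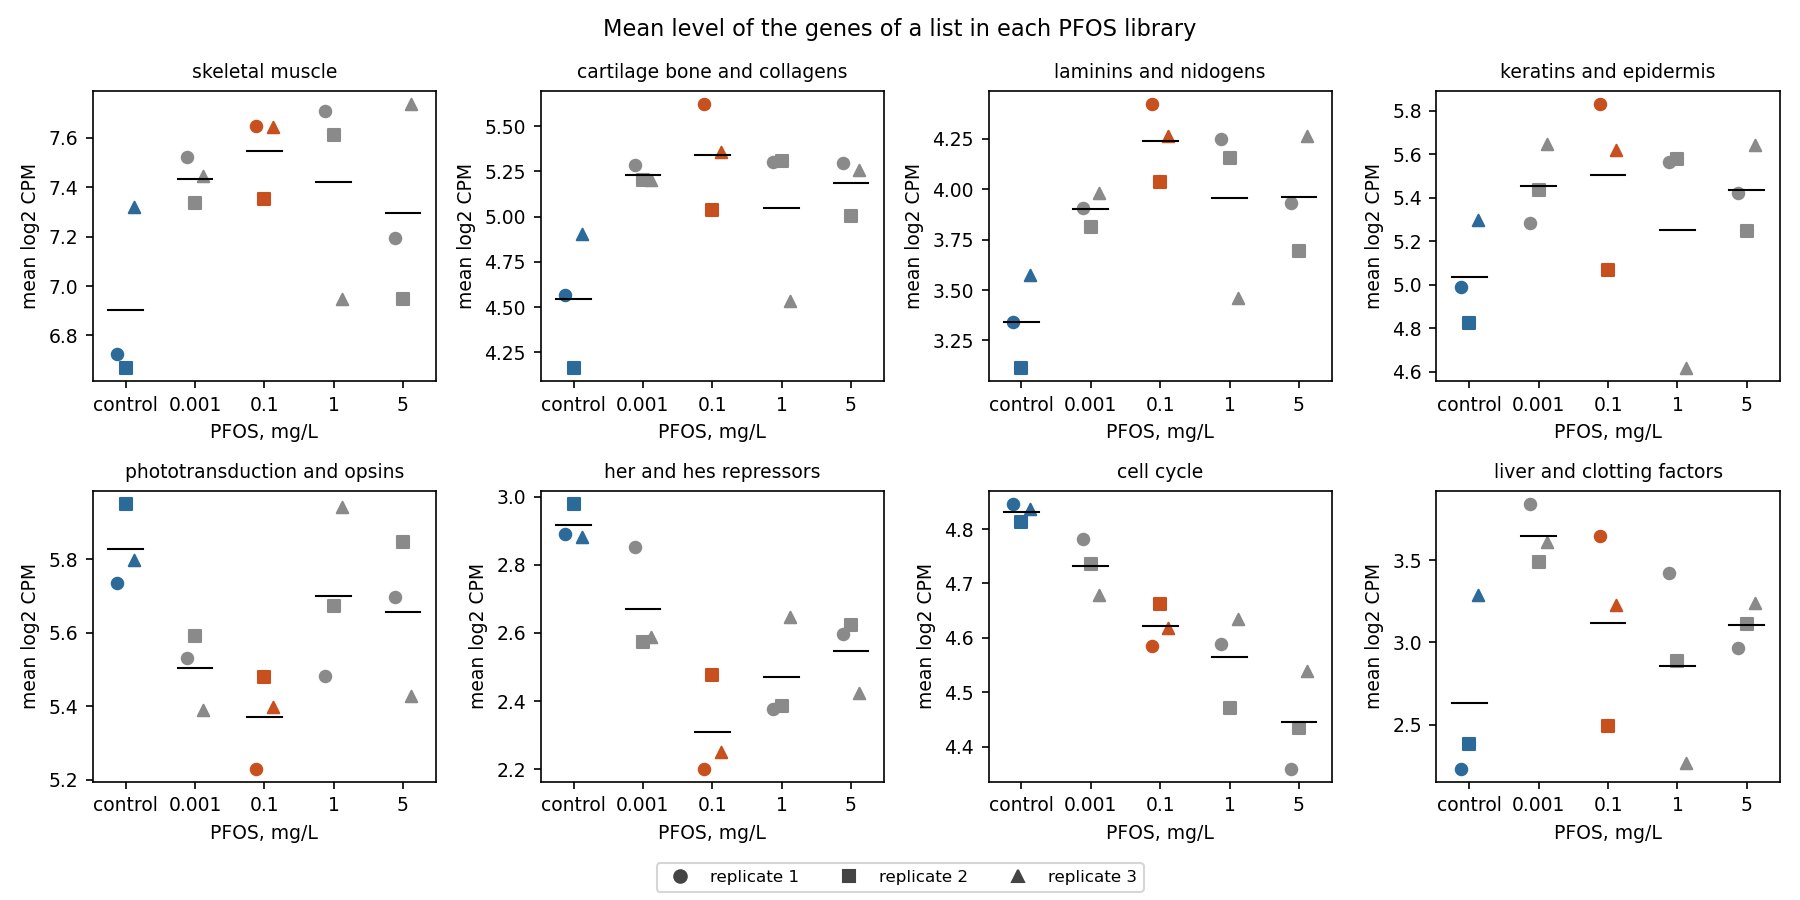
Mean log2 CPM of the genes of 8 lists in each of the 15 PFOS libraries, by concentration in mg/L, with the group mean as a line and the replicate as the symbol. At 0.1 mg/L (orange) skeletal muscle lay at 7.35 to 7.65 and her and hes repressors at 2.20 to 2.48, and in control pools (blue) at 6.67 to 7.32 and 2.88 to 2.98.

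Other tissue lists held 1 or 2 calls, or none, where 1.16% of all genes were called higher. The calls were 5.26% of the swim bladder list, 12.5% of 8 hatching gland genes, 5.13% of vessel genes and 3.33% of posterior Hox and even-skipped genes. Each of these shares rests on 1 or 2 genes. In the list of 19 swim bladder genes tested, sftpba, a surfactant protein gene of the air-filled swim bladder, had 2.69, 2.63 and 1.24 CPM in exposed pools and 0.425, 0.0956 and 0.843 CPM in control pools (log2 fold change 2.29 ± 0.53). The hatching enzyme he1.1, which dissolves the egg envelope, had 3.37, 1.82 and 1.47 CPM in exposed pools and 0.262, 0.542 and 0.383 CPM in control pools. Vessel genes kdrl, the endothelial VEGF receptor, and plvapb, a protein of endothelial openings, rose by 0.66 ± 0.15 and 0.77 ± 0.18, 2 calls among 39 tested. Of 30 posterior Hox and even-skipped genes, HOXB9 (ENSDARG00000056023) was called, at 0.66 ± 0.15.

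Most photoreceptor genes were lower in exposed pools. Of 68 tested genes of phototransduction and opsins, 4 were called lower (5.88%, against 0.551% of all genes) and none higher. At an unadjusted p under 0.05, 41 were lower (60.3%, against 11.3% of all genes). Their median log2 fold change was -0.52. The rod transducin alpha subunit GNAT1, which carries the light signal in rod cells, had 116, 146 and 157 CPM in exposed pools and 204, 252 and 258 CPM in control pools (log2 fold change -0.77 ± 0.17, adjusted p = 0.0463). The short-wavelength cone opsin opn1sw2 had 658, 820 and 687 CPM in exposed pools and 1171, 1404 and 1053 CPM in control pools. PRPH2 (ENSDARG00000014840), the peripherin that shapes outer segment discs, had 222, 259 and 260 CPM in exposed pools and 355, 455 and 373 CPM in control pools. RDH8 (ENSDARG00000105060), the retinol dehydrogenase that clears bleached chromophore, had 15.2, 19.5 and 16.6 CPM in exposed pools and 25.5, 32.7 and 25.5 CPM in control pools.

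Several further genes called lower are known from eye or brain. The GABA receptor subunit gabrr3b had 4.85, 7.70 and 6.93 CPM in exposed pools and 9.52, 14.5 and 11.4 CPM in control pools, and GABRR1 (ENSDARG00000043902) fell by 0.78 ± 0.19. SIX3 (ENSDARG00000054879), a homeobox gene of forebrain and eye, had 50.1, 69.7 and 58.8 CPM in exposed pools and 104, 122 and 104 CPM in control pools. The Iroquois gene irx7, needed in the zebrafish retina, had 5.69, 9.47 and 7.68 CPM in exposed pools and 12.3, 16.4 and 13.7 CPM in control pools. In the lens list 0 of 54 tested genes were called by edgeR (7 higher and 1 lower at an unadjusted p under 0.05), and 3 were called higher by DESeq2. The lens filament gene BFSP1 was at 13, 5.66 and 4.39 CPM in exposed pools and 0.458, 0.510 and 0.728 CPM in control pools, with an adjusted p of 0.0532.

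Repressors of the her and hes family, many of them Notch targets, keep neural progenitors from differentiating and oppose the proneural factors. The 23 tested her and hes genes were taken as a whole family after several calls were seen. Of these, 5 were called lower (21.7%, against 0.551% of all genes). All 23 had a negative fold change, against 46.8% of all genes, with a median of -0.59. These counts describe the family and do not test it. HES2 (ENSDARG00000068168) had 3.20, 4.51 and 4.59 CPM in exposed pools and 8.27, 8.09 and 9.35 CPM in control pools, a log2 fold change of -1.06 ± 0.18 (adjusted p = 0.0332). The Notch target her4.2 had 17.5, 19.8 and 15.9 CPM in exposed pools and 32.1, 34.2 and 30.8 CPM in control pools. The genes her12, her2 and her15.1 fell by 0.86, 0.85 and 0.65 on the log2 scale. Several her genes lie in sets of close copies, so reads may be shared among them. Mean log2 CPM over the family was 2.20, 2.48 and 2.25 in exposed pools and 2.89, 2.98 and 2.88 in control pools. Control pools here were close together, unlike in the muscle lists.

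Among 20 tested proneural and related bHLH factors, also grouped afterwards, 4 were called lower (20.0%, against 0.551% of all genes). At an unadjusted p under 0.05, 14 were lower (70.0%, against 11.3% of all genes). These counts likewise describe the family and do not test it. The gene ascl1b had 10.2, 11.7 and 11.6 CPM in exposed pools and 22.0, 22.5 and 18.7 CPM in control pools, a log2 fold change of -0.91 ± 0.11 (adjusted p = 0.00581). The neurogenin neurog1, which starts sensory and central neurons, had 4.45, 7.14 and 5.92 CPM in exposed pools and 11.7, 10.5 and 10.7 CPM in control pools. BHLHE22 and BHLHE23, related bHLH factors of retinal interneurons in mice rather than proneural genes, fell by 0.81 ± 0.18 and 0.80 ± 0.17. Among the other genes of the 15 furthest lower, rln3a, the relaxin 3 neuropeptide, had 2.90, 3.92 and 3.52 CPM in exposed pools and 8.80, 9.14 and 5.94 CPM in control pools. GNG11, a G protein gamma subunit, had 91.8, 125 and 126 CPM in exposed pools and 209, 251 and 223 CPM in control pools. RGS7BP (ENSDARG00000016742), which anchors a neuronal brake on G proteins, fell by 0.89 ± 0.15, and TLCD5 (ENSDARG00000035163), hnrnpa3, an RNA-binding protein, and AIG1 fell by 0.95, 0.87 and 0.82.

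Differentiated neuron genes leaned lower, although both called genes were higher. Of 71 tested, 49 had a negative fold change (69.0%, against 46.8% of all genes), with a list median of -0.24 (log2). At an unadjusted p under 0.05, 22 were lower (31.0%, against 11.3% of all genes). At the same threshold 10 were higher (14.1%, as among all genes). The 2 called genes were 2.82% of the list, against 1.16% of all genes called higher. The vesicular glutamate transporter SLC17A6 (ENSDARG00000001127) had 27.2, 29.6 and 20.6 CPM in exposed pools and 15.2, 13.5 and 12.3 CPM in control pools. The neurofilament gene nefma had 65.1, 49.2 and 68.9 CPM in exposed pools and 32.6, 31.2 and 30.8 CPM in control pools. In the glial list 9 of 39 tested genes were higher and 8 lower at an unadjusted p under 0.05. These were 23.1% and 20.5%, against 14.1% and 11.3% of all genes. The list's median log2 fold change was 0.07, and DESeq2 called 7 higher and 8 lower. The 2 called by edgeR (5.13%, against 1.16% of all genes called higher) mark astroglia. GFAP, the glial filament, rose by 0.53 ± 0.12 and SLC1A3 (ENSDARG00000043148), a glutamate transporter, by 0.55 ± 0.12.

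Most cell cycle and ribosomal protein genes had slightly negative fold changes. Of 58 tested cell cycle genes 1 was called lower (1.72%, against 0.551% of all genes). A negative fold change was seen in 52 (89.7%, against 46.8% of all genes), with a list median of -0.23. In 30 the exposed pools lay wholly below the control pools, or 51.7% against 14.3% of all genes. The call was GINS3, a part of the replicative helicase, with 4.92, 4.20 and 4.85 CPM in exposed pools and 7.19, 8.06 and 7.35 CPM in control pools. PCNA, the replication clamp, was at 232, 232 and 239 CPM in exposed pools and 298, 297 and 297 CPM in control pools, and its adjusted p was 0.0583. Of 79 tested ribosomal protein genes 78 had a negative fold change (98.7%, against 46.8% of all genes), and the median was -0.20. By edgeR 0 were called, with 17 lower at an unadjusted p under 0.05 (21.5%, against 11.3% of all genes). DESeq2 called 11 lower, where it called 1142 of 20690 genes lower. The ribosomal list depended on the libraries outside the group order. With only the 12 PFOS libraries in group order 53 of its genes were called lower, where 446 of 22072 genes were. The median was then -0.39. It was -0.38 without exposed replicate 3 and -0.13 without exposed replicate 1. Mean log2 CPM over it was 9.28, 9.32 and 9.73 in exposed pools and 9.63, 9.66 and 9.73 in control pools, so exposed replicate 3 lay at the control level. Among 13 mitochondrially encoded genes only MT-CYB was called lower (7.69%, against 0.551% of all genes). It had 4665, 4438 and 4366 CPM in exposed pools and 5942, 6144 and 5936 CPM in control pools.

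By edgeR, none of 42 liver and clotting genes, 49 intestine genes, 32 exocrine pancreas genes, 35 complement genes, 47 conjugating enzymes or 28 lipoprotein genes was called, although their median log2 fold changes were 0.48, 0.45, 0.41, 0.61, 0.34 and 0.27. At an unadjusted p under 0.05 these lists held 6, 6, 3, 5, 10 and 4 higher genes, and liver and exocrine pancreas 1 lower each. The higher genes were 14.3, 12.2, 9.38, 14.3, 21.3 and 14.3% of the lists, against 14.1% of all genes. The conjugating enzymes had the largest of these shares, and its difference from that of all genes was not tested. DESeq2 called 1 liver gene higher and 1 lower, 3 intestine genes higher and 3 conjugating enzymes higher. The mean log2 CPM over the liver list was 3.65, 2.49 and 3.23 in exposed pools and 2.23, 2.38 and 3.29 in control pools, which overlapped. The conjugating enzyme ugt2b1 was at 19.0, 4.34 and 5.31 CPM in exposed pools and 3.01, 1.72 and 2.49 CPM in control pools, with exposed replicate 1 far above the rest (adjusted p = 0.0901). These medians rested on single libraries. Without exposed replicate 1 they were 0.22 for liver, 0.15 for intestine, 0.28 for complement, 0.11 for conjugating enzymes and 0.098 for lipoproteins. Without control replicate 3 the median was 1.04 for liver, 0.71 for exocrine pancreas and 0.60 for lipoproteins. Leaving out exposed replicate 2 gave 0.79 for liver, 0.63 for exocrine pancreas, 0.53 for lipoproteins and 0.51 for conjugating enzymes. Lipoproteins had 0.15 without control replicate 1 and 0.095 without control replicate 2.

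For the fatty acid receptors and oxidation enzymes, 1 of 56 tested genes was called, or 1.79% against 1.16% of all genes. It was PPARD (ENSDARG00000044525), the delta receptor, with 2.19, 1.74 and 2.28 CPM in exposed pools and 0.948, 0.573 and 1.07 CPM in control pools (log2 fold change 1.26 ± 0.28). The alpha receptor, in its copies PPARA and pparaa, had log2 fold changes of 0.78 ± 0.52 and 0.04 ± 0.34 without a call, with pools that overlapped for pparaa. The liver fatty acid binding proteins FABP1 and fabp10a had log2 fold changes of 0.26 ± 0.35 and 0.66 ± 0.51 and were not called. Over the 22 tested binding protein genes the median was -0.07. At an unadjusted p under 0.05, 6 were lower (27.3%, against 11.3% of all genes) and 0 higher. Of 26 tested bile acid genes 1 was called higher (3.85%, against 1.16% of all genes). It was slco2b1, an organic anion uptake carrier. Its level was 17.0, 10.8 and 11.8 CPM in exposed pools and 7.39, 5.99 and 8.62 CPM in control pools. The bile acid synthesis enzyme CYP7A1 had a log2 fold change of 0.89 ± 0.44 (adjusted p = 0.221), with pools that overlapped. SCAP, which escorts the sterol sensor, was the single call of 40 sterol genes (2.5%, against 1.16% of all genes called higher). It rose by 0.82 ± 0.17, and the list's median was 0.00.

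Glucose handling was split. The glucose transporter SLC2A1 (ENSDARG00000007412) had 9.63, 6.72 and 6.58 CPM in exposed pools and 2.75, 3.44 and 3.45 CPM in control pools, and the lactate carrier SLC16A1 (ENSDARG00000068572) had 18.5, 13.3 and 14.3 CPM in exposed pools and 8.96, 6.53 and 8.96 CPM in control pools. Both rose. The glycolytic enzymes ENO1 (ENSDARG00000013750) and ALDOC (ENSDARG00000057661) fell by 0.53 ± 0.12 and 0.79 ± 0.19. The 57 tested genes thus held 2 calls each way, or 3.51% each, against 1.16% higher and 0.551% lower of all genes. At an unadjusted p under 0.05, 9 were higher and 14 lower (15.8% and 24.6%, against 14.1% and 11.3% of all genes).

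In the thyroid list 2 of 20 tested genes were called, both higher (10%, against 1.16% of all genes). Unadjusted p was under 0.05 for 4 higher and 2 lower genes (20% and 10%, against 14.1% and 11.3% of all genes). THRA (ENSDARG00000052654), the alpha thyroid hormone receptor, had 6.90, 6.58 and 8.03 CPM in exposed pools and 4.02, 4.52 and 4.29 CPM in control pools. KLF9, a transcription factor that thyroid hormone and glucocorticoids induce, had 22.7, 10.7 and 22.3 CPM in exposed pools and 6.18, 6.21 and 5.02 CPM in control pools, a log2 fold change of 1.67 ± 0.33 (adjusted p = 0.0367). It was the only call of 25 glucocorticoid-related genes (4.0%, against 1.16% of all genes called higher). FKBP5, another glucocorticoid target, was at 90.3, 63.8 and 111 CPM in exposed pools and 63.8, 62.7 and 58.1 CPM in control pools (adjusted p = 0.273). The thyrotropin subunit gene TSHB and the deiodinase gene DIO2 had log2 fold changes of 0.71 ± 0.63 and -0.52 ± 0.31, without a call.

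Stress and xenobiotic lists gave no calls by edgeR: 0 of 27 heat shock genes, 0 of 27 unfolded protein response genes, 0 of 35 Nrf2 genes, 0 of 16 aryl hydrocarbon receptor genes, 0 of 36 CYP2 and CYP3 oxidases, 0 of 30 p53 targets and 0 of 26 interferon genes. At an unadjusted p under 0.05 these 7 lists held 11 higher and 8 lower genes together. No list had more than 11.1% of its genes higher or 11.1% lower, against 14.1% and 11.3% of all genes. DESeq2 called 1 heat shock gene higher and 1 lower, 1 Nrf2 gene higher and 2 lower, and 1 interferon gene higher. The dioxin-inducible oxidase CYP1A1 was at 10.2, 4.34 and 3.35 CPM in exposed pools and 4.51, 3.50 and 4.90 CPM in control pools. The glutathione transferase gstp1.1 was at 34.4, 21.3 and 16.7 CPM in exposed pools and 5.98, 3.09 and 10.3 CPM in control pools, and its adjusted p was 0.0539. Immediate early genes, which neurons switch on soon after activity, held 0 calls by edgeR in 34 tested and 6 lower by DESeq2. At an unadjusted p under 0.05, 2 were higher and 11 lower (5.88% and 32.4%, against 14.1% and 11.3% of all genes). Their median log2 fold change was -0.26. NPAS4 (ENSDARG00000055752) was at 24.8, 28.1 and 20.9 CPM in exposed pools and 55.6, 63.8 and 50.8 CPM in control pools (adjusted p = 0.0601), and egr1 was at 69.5, 89.4 and 53.5 CPM in exposed pools and 130, 166 and 106 CPM in control pools (adjusted p = 0.0948). The photolyase-family gene cry3a fell by 0.72 ± 0.14. It was the single call of 35 clock genes (2.86%, against 0.551% of all genes called lower).

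The lists of 29 erythrocyte and 27 pigment genes each held 1 call higher and 1 lower. These were 3.45% and 3.7% of the lists each way, against 1.16% higher and 0.551% lower of all genes. Positive fold changes were seen in 22 and 20 of their genes (75.9% and 74.1%, against 53.2% of all genes). At an unadjusted p under 0.05, 5 erythrocyte genes were higher and 2 lower (17.2% and 6.9%). At the same threshold 8 pigment genes were higher and 4 lower (29.6% and 14.8%), against 14.1% and 11.3% of all genes. The erythroid regulator klf1 had 0.674, 0.336 and 0.751 CPM in exposed pools and 0.0981, 0.0956 and 0.153 CPM in control pools, levels of a few counts in the controls. TAL1, an earlier blood regulator also active in the brain, had 28.7, 37.1 and 35.8 CPM in exposed pools and 60.0, 62.2 and 52.1 CPM in control pools. The pteridine enzyme gch2, of yellow pigment cells, rose by 0.76 ± 0.15, and mtbl, in the same pigment list, fell by 0.77 ± 0.16.

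**Figure D5:**
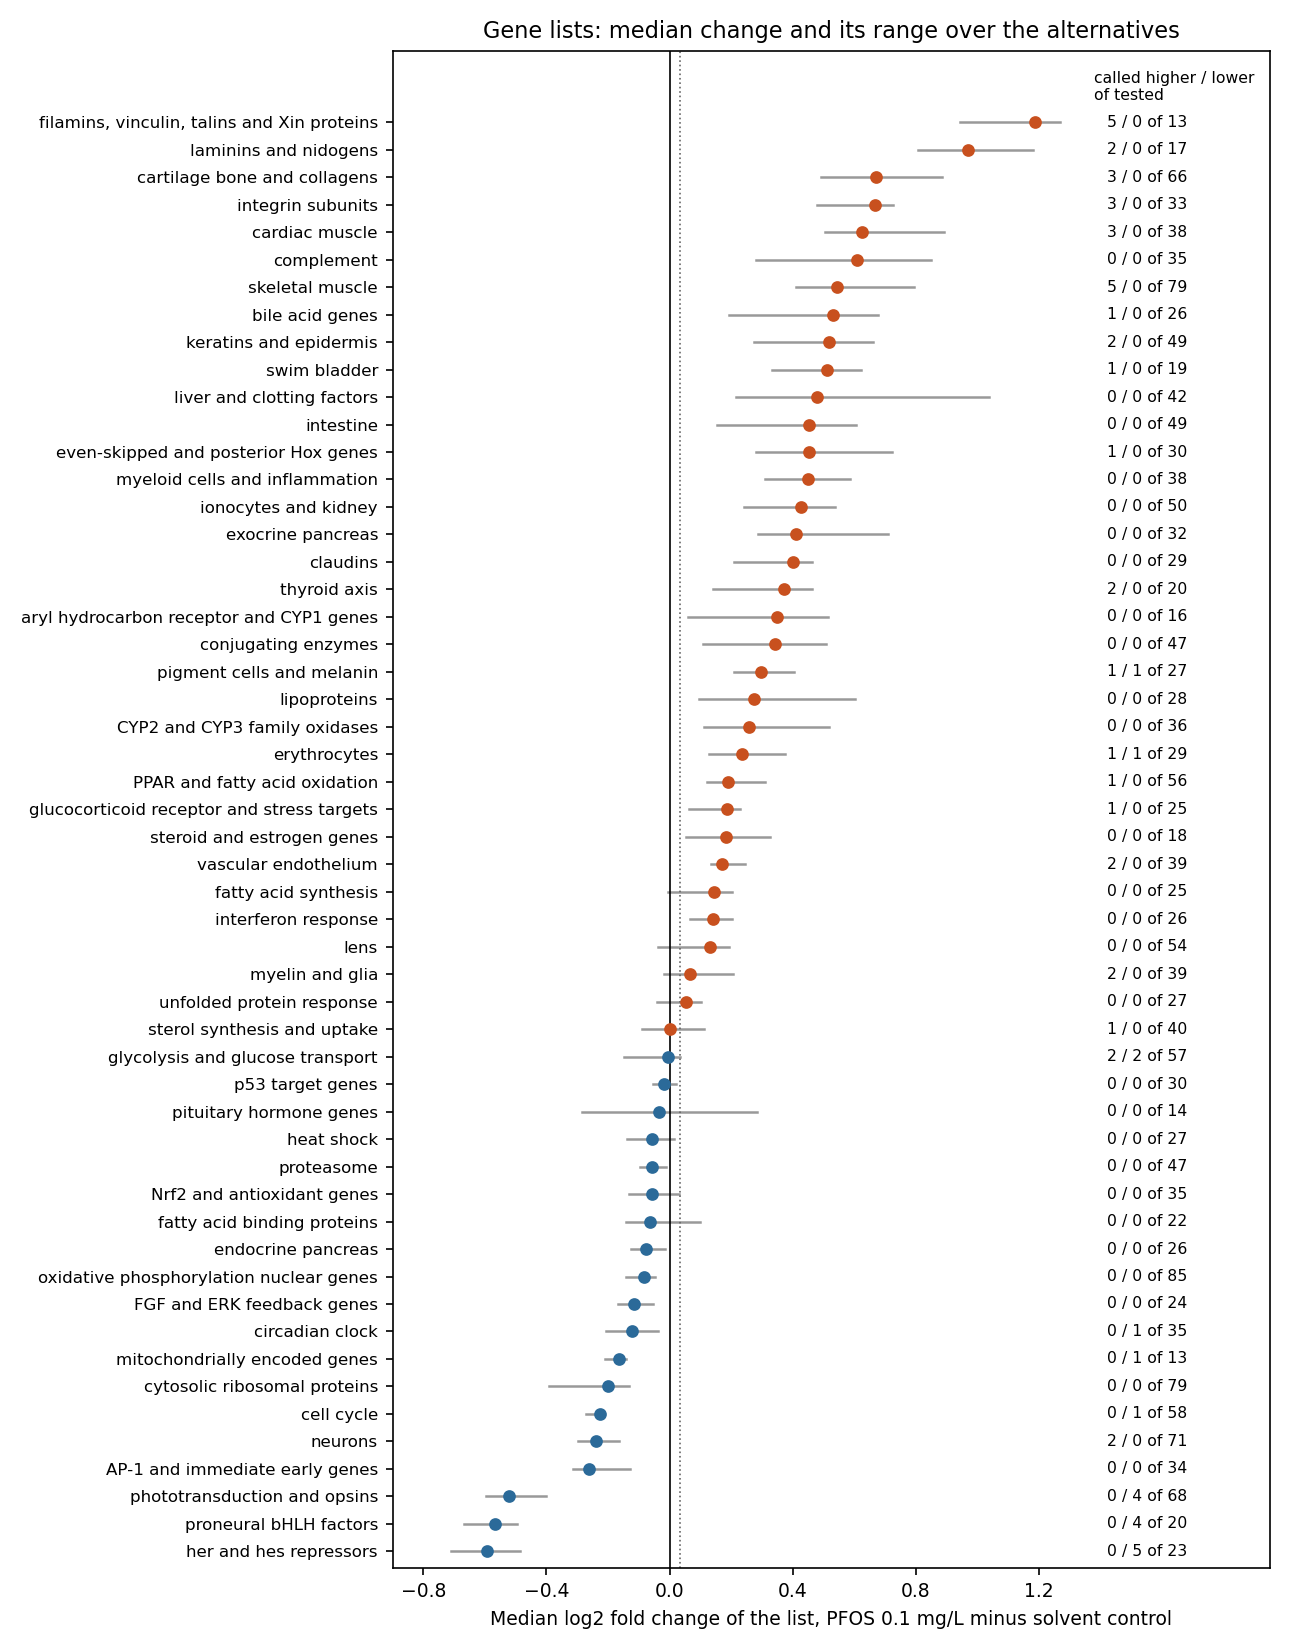
Median log2 fold change (PFOS 0.1 mg/L minus solvent control) of each list or family with at least 13 tested genes, as a point, with the lowest and highest median over the 16 alternatives as a grey bar. The dotted line is the median of all genes, 0.03, and the numbers at the right are genes called higher and lower of those tested. Families of muscle attachment and matrix lie at the top, and photoreceptor, proneural and her and hes genes at the bottom. The family labelled proneural also holds related bHLH factors. The filamin, laminin, integrin, proneural and her and hes families were added after their values were seen. Their places therefore describe these families and do not test them.

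The lower and higher concentrations of PFOS were set against the same 3 control pools, so their values share those controls. At 0.001 mg/L 0 genes were called by edgeR, with a smallest adjusted p of 0.0670, while 11.2% of genes were higher and 7.64% lower at an unadjusted p under 0.05. At 1 mg/L 3 genes were called, all higher (0.0136% of genes), and 8.87% were higher and 6.01% lower at an unadjusted p under 0.05. At 5 mg/L 40 were called (0.182%), of which 36 were higher (0.164%) and 4 lower (0.0182%), and 8.02% were higher and 6.38% lower at an unadjusted p under 0.05. The median log2 fold change of the 255 genes called higher at 0.1 mg/L was 0.67 at 0.001 mg/L, 0.97 at 0.1 mg/L, 0.73 at 1 mg/L and 0.64 at 5 mg/L. Of the 121 called lower it was -0.38, -0.62, -0.38 and -0.36 in the same order. These genes were chosen at 0.1 mg/L, which favours the largest value there. Cell cycle genes were ordered otherwise: their list median was -0.10 at 0.001 mg/L, -0.23 at 0.1 mg/L, -0.27 at 1 mg/L and -0.42 at 5 mg/L. The immediate early list had medians of 0.04, -0.26, 0.00 and 0.34.

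In direct tests between concentrations the controls enter only through the shared spread and scaling. PFOS 0.1 mg/L against 0.001 mg/L gave 1 call (0.00455% of genes, with 2.42% higher and 1.78% lower at an unadjusted p under 0.05). It was ANKRD11, higher by 0.85 ± 0.11 (adjusted p = 0.0461), where DESeq2 called 29 genes. The call was lost whichever of the 6 libraries compared was left out. The chromatin gene psip1b had 55.4, 64.8 and 68.1 CPM at 0.1 mg/L, with a log2 difference of 1.03 ± 0.16 to the 0.001 mg/L pools, and clpb, a mitochondrial disaggregase, of 0.83 ± 0.13. Neither passed (adjusted p = 0.116 and 0.124). Both were called against the controls, at 0.66 ± 0.15 and 0.72 ± 0.13.

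Against 1 mg/L 0 genes were called by edgeR (1.22% of genes higher and 1.91% lower at an unadjusted p under 0.05) and 5 by DESeq2. The leading gene there was he1.1, with a difference of 2.76 and an interval of 2 SE from 1.58 to 3.95. Against 5 mg/L 0 were called by edgeR (3.35% higher and 3.62% lower at an unadjusted p under 0.05), 57 by DESeq2, and 22 by edgeR without PFOS 5 mg/L replicate 3. The sarcomere cap gene tcap led, at 8.22, 9.16 and 7.74 CPM at 0.1 mg/L and a log2 difference of -1.30 ± 0.20 to 5 mg/L, adjusted p = 0.240. NPAS4 (ENSDARG00000055752) differed by -1.83 ± 0.33 from the 5 mg/L pools, adjusted p = 0.384.

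At the matched concentration of 0.1 mg/L, PFOS was compared with perfluoroethylcyclohexane sulphonate (PFECHS), which holds a ring, and perfluorobutane sulphonamide (FBSA), which has a shorter chain and an amide group. Each change was taken against that compound's own controls, with 3 libraries a group except FBSA 0.1 mg/L with 2, in a fit over all 44 libraries and 22703 genes. No gene's change differed between PFOS and PFECHS by edgeR (0 called, with 0.819% of genes higher and 0.577% lower at an unadjusted p under 0.05), nor between PFOS and FBSA (0 called, with 3.20% higher and 1.77% lower at an unadjusted p under 0.05). This does not show that the compounds act alike, because in this fit PFOS itself had 4 calls, and the intervals are wide. For klf1 the PFOS change exceeded that of PFECHS by 2.91 on the log2 scale, with an interval of 2 SE from 1.29 to 4.54. For ANKRD11 it exceeded that of FBSA by 1.32, with an interval from 0.70 to 1.94 (adjusted p = 0.730). ANKRD11 averaged 58.7 CPM in PFOS 0.1 mg/L and 29.5 CPM in its controls, 47.0 CPM in PFECHS 0.1 mg/L and 35.1 CPM in its controls, and 50.6 CPM in FBSA 0.1 mg/L and 63.4 CPM in its controls.

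List medians at 0.1 mg/L from that fit stood side by side as follows. For skeletal muscle the median was 0.54 with PFOS, 0.42 with PFECHS and 0.15 with FBSA. For laminins and nidogens it was 0.99, 0.45 and 0.26 in the same order, and for keratins and epidermis 0.51, 0.29 and 0.74. Phototransduction genes had medians of -0.53 with PFOS, -0.15 with PFECHS and -0.58 with FBSA, and her and hes genes -0.57, -0.29 and -0.21. Differences between these medians were not tested. The signs were alike in all 3 compounds for these 5 lists, but not for every list. Cell cycle genes had medians of -0.23 with PFOS, -0.08 with PFECHS and 0.04 with FBSA, and lens genes 0.12, 0.35 and -0.03.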

How the data were processed

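RNA-seq of pooled whole embryos was analysed. The authors deposited 1 table of estimated counts per gene, not normalised. FastQC, MultiQC and Trimmomatic are named, per the submitters' processing notes. The aligner, counter and build were not given in the sources used here. Counts were rounded to whole numbers and fitted with edgeR 4.0.16 in R 4.3.3 (TMM scaling, filterByExpr by group, quasi-likelihood F test) over the 15 PFOS libraries in 5 groups. P-values were adjusted by Benjamini-Hochberg over 21980 genes, with a threshold of 0.05. CPM values are TMM-scaled, and list means use log2 CPM with a prior count of 2. Each standard error was obtained by dividing the size of a log2 fold change by the square root of its F. The scripts were tested on simulated data.

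Named genes were the 15 called genes furthest in each direction with a usable symbol, mean log2 CPM of at least 1 and no overlap between pools, the 3 genes of smallest p in each list, the called genes of the lists and families, indicator genes, and the 5 genes of smallest p in each other comparison. The comparison, lists and indicators were chosen with earlier results of these data known, and 6 whole families were added after values were seen. Gene symbols came from a name table and some are those of the human gene. Identifiers are given where several genes share a symbol. Alternatives included DESeq2 1.42.0, other scalings and filters, other sets of libraries, a replicate block and leaving out each replicate. Some items are not reported here. Library totals limit precision for genes of a few counts.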

Additional observations from a re-analysis of the deposited data

How the results depend on the processing

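The count of 376 called genes was 369 with relative log expression scaling (228 higher, 141 lower), 268 without a filter, 470 with at least 1 CPM in 3 libraries and 349 with robust fitting. It was 2354 with DESeq2 (1212 higher, 1142 lower), 4 with all 44 libraries and 41 with only the 6 compared. It ranged from 1 to 647 when 1 replicate was left out. With 2 alternatives chosen after seeing the data it was 1261 with place in the table as a term (641 higher, 620 lower) and 865 with the 12 libraries in group order (419 higher, 446 lower). The cause of these differences was not tested. Correlations of deviations for same-numbered pools were 0.0756, 0.273 and 0.275, and those for other pairs of pools ran from -0.329 to 0.131. Each exposed pool correlated best with the control pool of its own number, while control replicate 1 correlated best with exposed replicate 2. Whether the replicate numbers pair the pools was not tested, and the reported fit held no replicate block. A fit with the replicate block called 5 genes, 3 higher and 2 lower, against control, and 0 between 0.1 and 0.001 mg/L. The comparison with 0.001 mg/L gave 1 gene, 29 with DESeq2 and 0 in every fit without a replicate (range 0 to 0). The comparison with 1 mg/L gave 0, and 5 with DESeq2. The comparison with 5 mg/L gave 0, 57 with DESeq2 and 0 to 22 without a replicate. The difference from PFECHS gave 0 under every alternative run, and that from FBSA 0, or 0 to 1 without a replicate. Where a median lay near 0, its sign changed under some alternative in 12 lists, among them heat shock, lens and sterol genes.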

Other observations

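The even-skipped gene evx1, a regulator of spinal interneurons, had 0 counts in all 3 exposed pools, against 2.35, 3.54 and 0.421 CPM in control pools, and was not called (adjusted p = 0.0909). It was also at 0 in every pool at 0.001 and 1 mg/L, and at 1.88, 0 and 0 CPM at 5 mg/L.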
